A study of Mus musculus with 2 samples.

Results

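The 6 GATA transcription factors (Gata1, Gata2, Gata3, Gata4, Gata5 and Gata6) and the 2 FOG cofactors (Zfpm1, which encodes FOG1, and Zfpm2, which encodes FOG2) were described in total RNA-seq of mouse lung at embryonic day 16.5. They were chosen by name as the complete families and make up 8 of 43346 gene rows, all 8 of them among the 21474 rows that code for protein. The tissue was a single group of 2 libraries, biological replicates 1 and 2, both from strain B6NCrl and both made from pooled embryos of mixed sex. The pool of replicate 2 held 41 embryos, and the labels give no number for replicate 1. No treatment or altered allele is named, so there was no comparison between conditions, and the values show which family members this tissue carried and how far 2 pools of it differed. Because whole organs were pooled and read in bulk, fewer cells of a type and less RNA per cell cannot be told apart.

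GATA factors bind the DNA word GATA through a pair of zinc fingers. By background knowledge in mouse, GATA1 drives red cell and megakaryocyte maturation, GATA2 maintains blood progenitors and is used by endothelium and mast cells, and GATA3 directs T cells and innate lymphoid cells. GATA4, GATA5 and GATA6 act in heart, gut and other organs with mesoderm and endoderm parts, and GATA6 is the family member best known for lung epithelium and smooth muscle. FOG proteins act through GATA factors: they bind the amino-terminal zinc finger of a GATA factor and bring in repressors, above all the NuRD complex and CtBP. FOG1 is the partner of GATA1 in blood, and FOG2 is the partner of GATA4 in heart and is required for the diaphragm and for normal lung growth in mouse.

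Gata2 has a pair of known starts in mouse, a distal one known from blood and nervous tissue and a proximal one in general use, and nearly all of its reads were assigned to the proximal form, so both promoters are shown. The promoter of Gata5, the member with the highest level, is shown beside them. Each line gives 300 bases of RefSeq sequence in build GRCm38.p6, from 250 bases before the first transcribed base to 50 bases from it on, 5′ to 3′ on the gene's strand. Capitals mark matches to GGGCGG (the GC box) or CCAAT (the CCAAT box) on either strand, so that a CCAAT on the other strand reads ATTGG. The windows are chr6:88193641-88193940 on the plus strand for the distal start of Gata2, chr6:88198414-88198713 on the plus strand for its proximal start, and chr2:180334630-180334929 on the minus strand for Gata5.
Gata2 distal start: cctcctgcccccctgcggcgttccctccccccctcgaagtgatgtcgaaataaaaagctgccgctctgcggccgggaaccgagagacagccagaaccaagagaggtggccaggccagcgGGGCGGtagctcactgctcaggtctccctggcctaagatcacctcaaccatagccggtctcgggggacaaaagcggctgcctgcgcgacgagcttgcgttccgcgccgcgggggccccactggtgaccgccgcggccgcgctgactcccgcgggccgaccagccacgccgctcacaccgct
Gata2 proximal start: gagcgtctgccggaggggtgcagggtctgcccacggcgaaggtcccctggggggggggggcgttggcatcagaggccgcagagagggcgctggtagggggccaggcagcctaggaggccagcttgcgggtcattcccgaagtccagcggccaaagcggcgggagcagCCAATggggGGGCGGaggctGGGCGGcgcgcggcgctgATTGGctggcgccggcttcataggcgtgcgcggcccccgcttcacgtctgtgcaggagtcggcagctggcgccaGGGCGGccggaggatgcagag
Gata5: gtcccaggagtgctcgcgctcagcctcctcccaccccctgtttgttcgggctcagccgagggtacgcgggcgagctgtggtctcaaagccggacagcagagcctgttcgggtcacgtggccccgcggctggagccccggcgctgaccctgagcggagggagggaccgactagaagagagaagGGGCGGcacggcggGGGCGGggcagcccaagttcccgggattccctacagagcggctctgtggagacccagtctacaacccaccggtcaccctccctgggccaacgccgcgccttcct
The distal Gata2 window held 1 GC box and no CCAAT box, and its G and C content was 69.3% with 32 CpG. The proximal window, whose start lies 4773 bases downstream, held 3 GC boxes and 2 CCAAT boxes, at 73.7% G and C with 29 CpG. The Gata5 window held 2 GC boxes at 69.7% G and C with 26 CpG. Over all 32851 RefSeq promoter windows of this length the median was 52.7% G and C and 7 CpG. GGGCGG stood in 35.7% of them and CCAAT in 37.4%.

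RefSeq windows were matched for 5 of the 8 genes, 6 windows in all. Each of the 6 held at least 1 GC box, and none held TATAAA, which 13.6% of all windows held. The family's own binding word was searched on both strands as AGATAA, with T also taken as the first letter and G as the last. It shares no overlap with the other words searched. Of the 6 windows, 1 held such a word, a TGATAG at base 37 of the Gata3 transcript, against 29.8% of all windows. These matches describe the letters of the windows only. The window of Gata1 stood apart from the other 5 in composition, with 57.3% G and C and 4 CpG, where the others had 22 to 37 CpG.

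Gata5, Gata6 and Gata2 led the family in this tissue, followed by Gata3, Zfpm2 and Gata4 at lower levels, with Gata1 and Zfpm1 near the limit of 1 TPM used here for detection. TPM is a level per unit of transcript length, relative to all transcripts of the library, and levels of different genes are compared on it. Of the 8 genes, 6 reached 1 TPM in both replicates, and over all rows that code for protein the share was 61.5%. A level of 10 TPM was reached in both replicates by 3 of the 8. The median over the 8 genes was 3.93 ± 0.138 TPM (SD, n = 2), beside a median of 4.87 ± 0.219 TPM over all protein-coding rows.

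**Figure D1:**
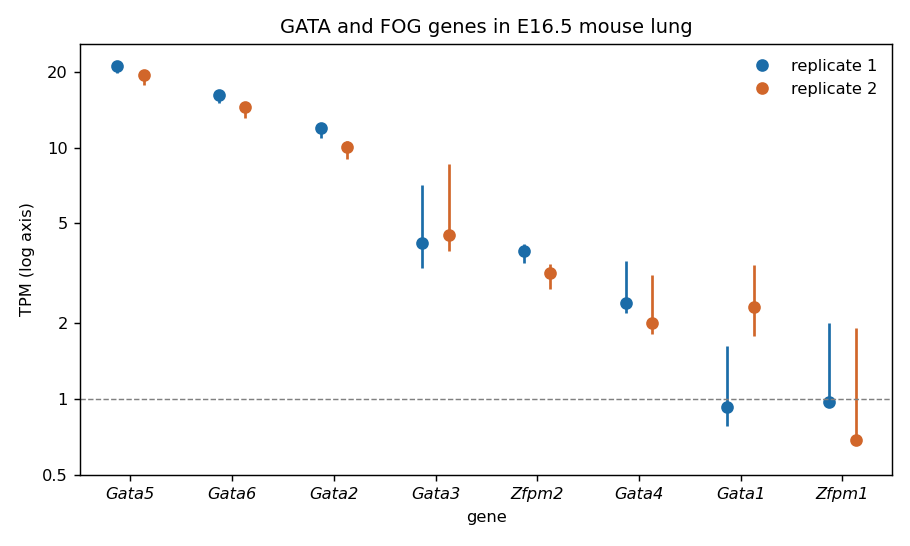
TPM (log axis) of each GATA and FOG gene in replicate 1 (blue) and replicate 2 (orange), with vertical lines for the bounds the authors deposited for each library, and a dashed line at 1 TPM. Gata5, Gata6 and Gata2 stand above the other 5 genes in both replicates, and Gata1 is the gene whose replicates are farthest apart.

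Among the 3 genes of the cardiac and endodermal branch, Gata5 was highest. It encodes a factor known from endocardium, gut and smooth muscle, and lies at chromosome 2, 180325133 to 180334699, on the minus strand. Gata5 had 21.2 TPM in replicate 1 and 19.4 TPM in replicate 2, on average 20.3 ± 1.27 TPM (SD, n = 2). The expected counts behind these levels were 1763 and 1144. In both libraries it lay at about the same place among protein-coding genes, at percentile 71.2 in replicate 1 and 69.7 in replicate 2. Gata5 was the only member with counts that were not whole numbers, as arises when reads are divided with another gene, and the posterior SD of its count was 1.39 reads in replicate 1 and 1.41 in replicate 2.

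The antisense gene Gata5os overlaps the 5′ part of Gata5 for 1843 bases on the other strand. It had 1.06 TPM in replicate 1 and 1.33 TPM in replicate 2, a mean of 1.20 ± 0.191 TPM. Its counts, 43.93 and 38.96, were likewise not whole numbers and were small beside those of Gata5, 1763.07 and 1144.04. No source used here states a strand setting, so reads from the overlap cannot be told apart by strand.

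Gata6, the family member best known for lung epithelium, came second. It lies at chromosome 18, 11052064 to 11085635, on the plus strand. The gene had 16.3 TPM in replicate 1 and 14.5 TPM in replicate 2, on average 15.4 ± 1.25 TPM. The counts behind these levels were 1317 and 832. The replicates were close, and within each library Gata6 stood below Gata5 by a mean log2 ratio of -0.40 ± 0.03. A noncoding gene on the other strand, 1010001N08Rik, overlaps the first 504 bases of the gene as annotated. It ends at base 11052567, and Gata6-201, the only Gata6 transcript measured, begins at base 11052470. The noncoding gene had 3.03 TPM in replicate 1 and 2.62 TPM in replicate 2.

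Gata4, a core factor of heart development that is also active in mesothelium and diaphragm, was the lowest of this branch. It lies at chromosome 14, 63198922 to 63271692, on the minus strand. Gata4 had 2.42 TPM in replicate 1 and 2.00 TPM in replicate 2, on average 2.21 ± 0.297 TPM. It rested on 173 and 99 counts. Gata6 exceeded it 6.96-fold, with a log2 ratio of 2.80 ± 0.08 within a library, and Gata4 over Gata5 gave -3.20 ± 0.10. Both ratios had the same sign in both replicates and a mean beyond 2 SD, the rule used here for saying that a sign held.

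In the haematopoietic branch Gata2 led. It encodes a factor of blood progenitors and endothelium and lies at chromosome 6, 88193891 to 88207032, on the plus strand. Gata2 had 11.9 TPM in replicate 1 and 10.1 TPM in replicate 2, on average 11.0 ± 1.30 TPM. The counts behind these levels were 980 and 587. It stood below Gata6 in both libraries, at a log2 ratio of Gata6 over Gata2 of 0.49 ± 0.05, or 1.40-fold.

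Gata3, the T cell and innate lymphoid factor, lies at chromosome 2, 9857078 to 9890034, on the minus strand. It had 4.19 TPM in replicate 1 and 4.49 TPM in replicate 2, on average 4.34 ± 0.212 TPM. The counts behind these levels were 251 and 203. Gata3 stood below Gata2 by a log2 ratio of -1.34 ± 0.24, a sign that held. Next to it in level was Zfpm2, and their order did not hold, at 0.31 ± 0.27. Of the genes annotated over Gata3, Gm13256 and 9230102O04Rik were listed at 0 in both libraries, and 4930412O13Rik had 1 count in replicate 1 and 0 in replicate 2.

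Gata1, the red cell and megakaryocyte factor, lies at chromosome X, 7959260 to 7978071, on the minus strand. It had 0.93 TPM in replicate 1 and 2.33 TPM in replicate 2, on average 1.63 ± 0.990 TPM. The counts behind these levels were 44 and 61. Replicate 2 was the higher library although it was read less deeply. Gata2 exceeded Gata1 in both replicates, with log2 ratios of 3.67 in replicate 1 and 2.11 in replicate 2. The order of Gata1 against Gata4 turned between the libraries, at 1.37 for Gata4 over Gata1 in replicate 1 and -0.22 in replicate 2.

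Of the cofactors, Zfpm2 was the higher. It encodes FOG2 and lies at chromosome 15, 40655035 to 41104592, on the plus strand. Zfpm2 had 3.87 TPM in replicate 1 and 3.18 TPM in replicate 2, on average 3.53 ± 0.488 TPM. The counts behind these levels were 493 and 287. Zfpm1, which encodes FOG1, lies at chromosome 8, 122282141 to 122337251, on the plus strand. It had 0.97 TPM in replicate 1 and 0.69 TPM in replicate 2, on average 0.83 ± 0.198 TPM. The counts behind these levels were 83 and 42. Within a library Zfpm1 stood below Zfpm2 at a log2 ratio of -2.09 ± 0.14. A readthrough gene model on the same strand, Gm20388, spans Zfpm1 and was listed at 0 in the first library and had 8.97 TPM in replicate 2, or 640 expected counts. The gene counts of Zfpm1 were nevertheless whole numbers, with a posterior SD of 0 in both libraries.

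Set against their usual partners, the cofactors differed. Zfpm2 stood above Gata4 by a log2 ratio of 0.67 ± 0.01, and below Gata6 at -2.13 ± 0.08. With n = 2 and 173 and 99 counts of Gata4, the small SD of the first ratio does not measure its precision. Zfpm1 stood below Gata2 at -3.73 ± 0.17 and below Gata3 at -2.39 ± 0.41. Against Gata1, its partner in blood, Zfpm1 gave a log2 ratio of 0.06 in replicate 1 and -1.74 in replicate 2, so that no order held. Of 15 ratios examined, 11 held their sign and 4 did not. Of the 7 between neighbours in the order of levels, 4 held: Gata5 above Gata6, Gata6 above Gata2, Gata2 above Gata3, and Zfpm2 above Gata4. The other 3, Gata3 with Zfpm2, Gata4 with Gata1, and Gata1 with Zfpm1, were not separated beyond their spread.

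**Figure D2:**
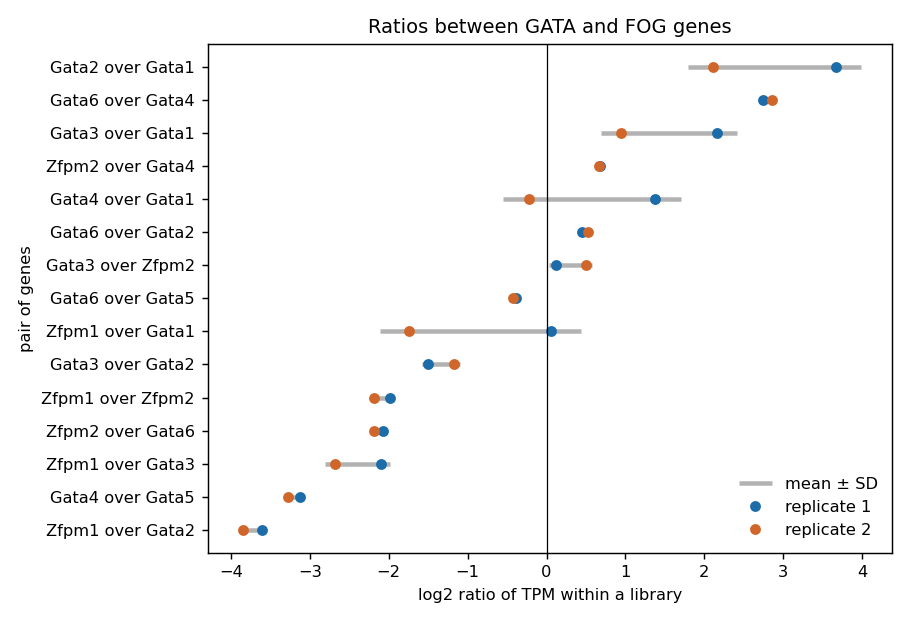
Log2 ratio of TPM within a library for 15 pairs of GATA and FOG genes, with replicate 1 in blue, replicate 2 in orange and a grey bar for the mean ± SD (n = 2). The 4 pairs with Gata1 have the longest bars, and the pairs of Gata5 and Gata6 with other genes have points close together.

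Summed over the family, the 6 GATA genes had 57.0 TPM in replicate 1 and 52.9 TPM in replicate 2. Gata5 alone made up 37.3% of this sum in replicate 1 and 36.8% in replicate 2, Gata6 28.6% and 27.5%, and Gata2 20.9% and 19.1%. Gata4, Gata5 and Gata6 together held 70.1% in replicate 1 and 68.0% in replicate 2. The sum of Gata1, Gata2 and Gata3 was 17.1 TPM in replicate 1 and 16.9 TPM in replicate 2, although the share of Gata1 within all 6 was 1.63% in replicate 1 and 4.41% in replicate 2. Zfpm1 and Zfpm2 summed to 4.84 TPM in replicate 1 and 3.87 TPM in replicate 2, which was 8.49% and 7.32% of the GATA sum.

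Gata1 was the member that differed most between the pools, with a TPM 2.51 times as high in replicate 2, and the other members lay close together. Of the 7 genes whose mean reached 1 TPM, 0 differed by 2-fold or more on the log2(TPM + 1) scale, which understates differences of low genes. With a pseudocount of 0.1 in place of 1, Gata1 passed 2-fold, at a log2 difference of 1.24. Over all 15493 genes with such a mean the share was 2.67%, made up of 1.93% higher and 0.742% lower in replicate 2. Of the 7, 5 were lower in replicate 2 and 2, Gata3 and Gata1, were higher, where 50.2% of all compared genes were higher. All 8 genes kept their direction under the 6 other scalings and settings examined. With 1 group of 2 libraries the smallest two-sided p of an exact sign-flip test is 0.5, so no p-value is given and differences are set against the spread of genes of like level.

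The difference in log2(TPM + 1), replicate 2 minus replicate 1, was -0.12 for Gata5, -0.16 for Gata6 and -0.19 for Gata4. It was -0.22 for Gata2, Zfpm2 and Zfpm1, and 0.08 for Gata3. Gata1 had 0.79. Among the 500 genes nearest to Gata1 in mean level, 11.2% differed at least as much in either direction, and for Gata2 the share was 19.0%. For Gata5, Gata6, Zfpm2, Zfpm1, Gata4 and Gata3 it lay between 32.2% and 72.0%. Each of the 8 differences was thus matched by at least 11.2% of the genes of like level.

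**Figure D3:**
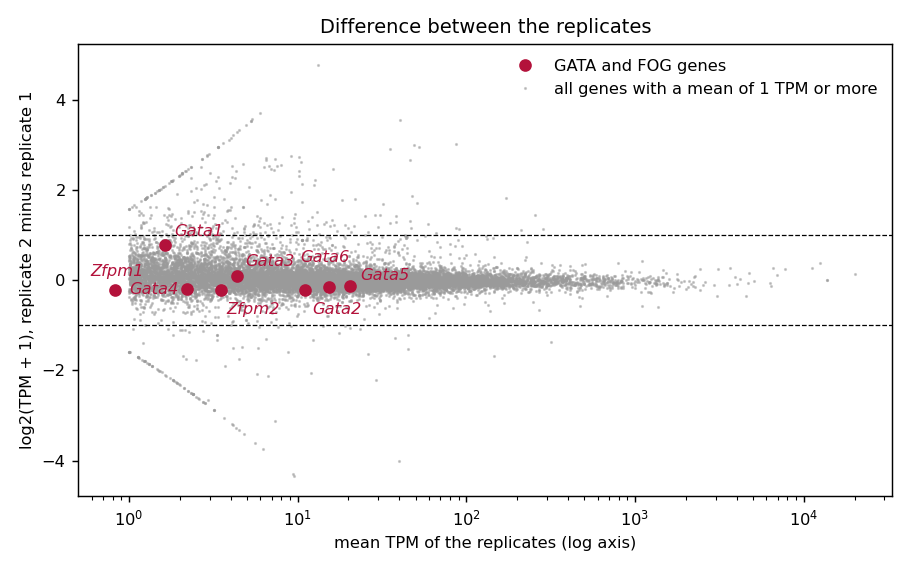
Difference in log2(TPM + 1), replicate 2 minus replicate 1, against mean TPM (log axis) for 15493 genes whose mean reached 1 TPM (grey) and for the 8 GATA and FOG genes (red), with dashed lines at 2-fold. Gata1 lies at 0.79 and the other 7 lie between -0.22 and 0.08.

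Counting error gave a second yardstick, since it does not depend on transcript lengths. In CPM, a gene's share of all gene counts in its library, not divided by length, Gata1 had 1.16 CPM in replicate 1, with an exact Clopper-Pearson 95% interval of 0.842 to 1.56, and 2.30 in replicate 2, with 1.76 to 2.96. These intervals did not overlap, and the ratio was 1.98 in CPM, against 2.51 in TPM. Gata2 had 25.8 in replicate 1, with 24.2 to 27.5, and 22.1 in replicate 2, with 20.4 to 24.0, again without overlap. For the other 6 genes the intervals overlapped, which does not show that they did not differ. Of all 15493 genes compared, 21.3% had intervals that did not overlap, and 2 of the 7 family members compared did so. The intervals cover counting error only, since reads without molecular identifiers are not independent molecules, and they leave out the difference between pools.

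Part of the Gata1 difference in TPM lay in how reads were assigned to transcripts. In replicate 1 all of its reads were assigned to Gata1-201, the full-length transcript, and in replicate 2 this transcript held 71.5% of the gene's TPM. The short models Gata1-203 (421 nt) and Gata1-202 (676 nt) made up the rest in replicate 2, from 5.42 of 61 counts, or 8.89% of the counts. As division by length weights a short transcript more, 8.89% of counts became 28.5% of the TPM. Gata1-201 alone had 0.93 TPM in replicate 1 and 1.66 TPM in replicate 2, a ratio of 1.78. The bounds the authors deposited for the gene were 0.783 to 1.63 TPM for replicate 1 and 1.78 to 3.40 TPM for replicate 2, and they did not overlap.

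**Figure D4:**
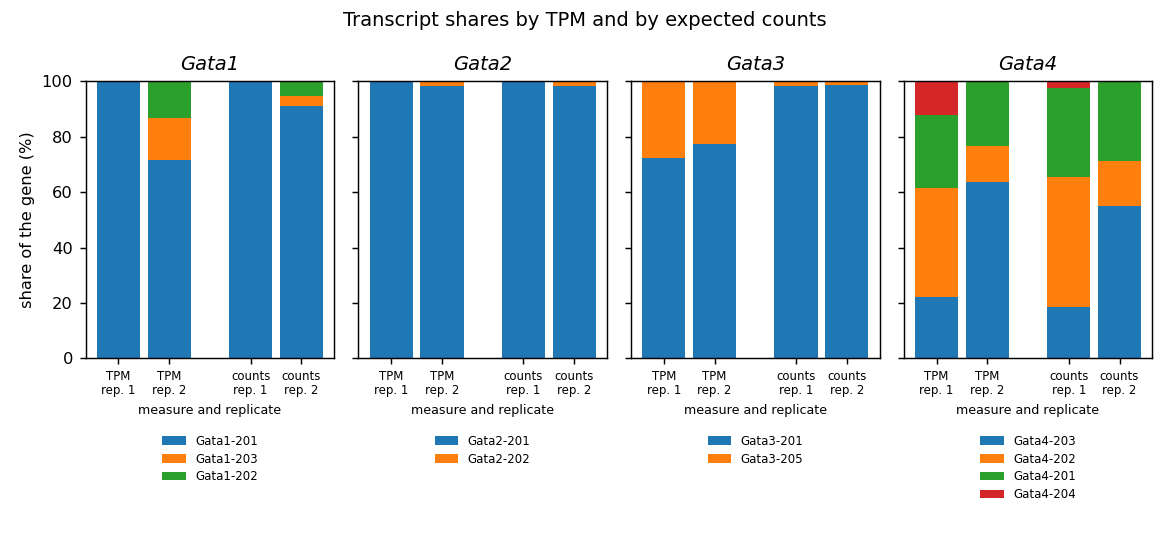
Share of each gene's TPM (left pair of bars) and of its expected counts (right pair) held by each transcript, in replicates 1 and 2, for Gata1, Gata2, Gata3 and Gata4 (transcripts listed at 0 in both replicates are left out). Gata3-205 takes 25.3% of the TPM and 1.54% of the counts on average, and the share of Gata4-203 is 22.0% of the TPM in replicate 1 and 63.6% in replicate 2.

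The transcript tables listed 24 transcripts of the 8 genes. Gata5, Gata6 and Zfpm2 had 1 each, and 9 transcripts were listed at 0 in both replicates. Gata2 reads fell almost wholly on Gata2-201, the proximal form, at 99.1 ± 1.26% of the gene's TPM (n = 2). Gata2-202, whose first base is the distal start printed above, was listed at 0 in replicate 1 and had 1.78% in replicate 2, from 10.1 of 587 counts. The posterior SD of the Gata2-202 count, 11.8 reads in replicate 1 and 12.9 in replicate 2, was larger than the count itself. Its deposited upper bounds were 0.470 TPM and 0.782 TPM. The distal form was thus not detectable at this depth in either library. The annotation used in the files gives Gata2-201 a length of 3241 nt, and the later annotation used here for coordinates lengthens it by 330 nt, the same distance that separates its start there from the RefSeq proximal start.

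Gata3-201, the full-length form, held 98.5 ± 0.274% of the Gata3 counts but 74.8 ± 3.44% of its TPM. The remainder belonged to Gata3-205, a processed transcript of 243 nt without an annotated coding sequence. It had 4.36 counts in replicate 1 and 2.74 in replicate 2. The 25.3 ± 3.44% of the gene's TPM held by Gata3-205 thus rested on fewer than 5 reads in each library, and the other 4 Gata3 transcripts were listed at 0 in both. For Zfpm1, all counts fell on Zfpm1-201, and 3 shorter processed transcripts were listed at 0.

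Gata4 was the gene whose transcript shares differed most between the pools. Its transcripts begin at a main start, from which Gata4-201 and Gata4-202 are read, at an internal start at base 63213607 of chromosome 14, used by Gata4-203, and at upstream starts of 3 short models. The internal form held 18.5% of the Gata4 counts in replicate 1 and 55.1% in replicate 2, and the main start held 79.0% and 44.9%. The leading transcript was Gata4-202 in replicate 1 and Gata4-203 in replicate 2. The bounds deposited for Gata4-203 were 0.118 to 1.10 TPM for replicate 1 and 0.727 to 1.79 TPM for replicate 2, and those for Gata4-202 were 0.186 to 1.42 TPM and 0.0129 to 0.621 TPM. Both pairs of bounds overlapped. The posterior SD of the Gata4-203 count was 14.4 reads in replicate 1, where 32.1 reads were assigned to it, and 9.37 reads in replicate 2, where 54.5 were.

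The lists of other genes below follow the pathway of the factors and the cells that use them. The defining markers of the labelled tissue were present, as all 15 lung epithelial genes reached 1 TPM in both replicates, with Sftpc, the surfactant protein C gene, reaching 10883 TPM in replicate 1 and 14172 TPM in replicate 2, and with Nkx2-1, the lung and thyroid factor, at 77.0 TPM and 62.6 TPM. Liver genes, which mark another organ, were higher in replicate 2 for 8 of 8 compared, all 8 past 2-fold (Afp, Apoa2, Alb, Apoa1, Ahsg, Ttr, Serpina1a and Fgb). Alb, the albumin gene, had 10.1 TPM in replicate 1 and 88.3 TPM in replicate 2, and Afp, the alpha-fetoprotein gene, 18.3 TPM and 155 TPM. The 9 listed liver genes summed to 63.6 TPM and 520 TPM, and the lowest, Hnf4a, a liver and gut factor gene, had 0.02 TPM and 0.28 TPM. Skeletal muscle genes were higher in replicate 2 for 9 of 9. On the log2(TPM + 1) scale 5 of them passed 2-fold (Acta1, Mylpf, Tnni2, Tnnt3 and Myh8). The 9 genes summed to 207 TPM in replicate 1 and 572 TPM in replicate 2. Acta1, the skeletal actin gene, and Ckm, the muscle creatine kinase gene, led, and Actn3 was lowest at 1.78 TPM and 4.22 TPM. None of the defining liver or muscle markers was at 0. These lists do not hold a GATA or FOG gene, and their part in the differences of the family was not tested.

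The corepressors that FOG proteins recruit were abundant in both libraries. All 15 NuRD and CtBP genes reached 1 TPM in both replicates, and the list's median was 64.7 ± 1.63 TPM, beside 4.87 ± 0.219 TPM over protein-coding rows. Rbbp7 and Rbbp4, histone-binding subunits, were highest, Rbbp7 with 441 TPM in replicate 1 and 429 TPM in replicate 2, and Rbbp4 at 325 TPM and 297 TPM. The lowest was Mbd2, a methyl-CpG binding subunit, with 6.07 TPM in replicate 1 and 7.13 TPM in replicate 2, still above both FOG genes. Of the 15, 0 passed 2-fold, and 6 were higher in replicate 2.

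Other genes with GATA-type zinc fingers, most of them chromatin proteins, were measured for comparison. Of 9, 8 reached 1 TPM in both replicates, and the list's median was 23.0 ± 3.25 TPM. Mta2, a NuRD subunit, had 138 TPM in replicate 1 and 125 TPM in replicate 2, and Gatad1 had 55.1 TPM and 52.6 TPM. Zglp1, a germ cell factor, was lowest at 0.46 TPM and 0.47 TPM. Mta1, Mta2, Mta3, Gatad2a and Gatad2b stand in both lists.

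Genes of red cells were higher in replicate 2 alongside Gata1. Of 17 erythroid genes compared, 17 were higher in replicate 2, also under the other scalings, where 50.2% of all genes were. The sizes were uneven. Hba-a2, an alpha globin gene, had 19266 TPM in replicate 1 and 21227 TPM in replicate 2, and Hbb-bs, a beta globin gene, had 10181 TPM and 12311 TPM. The 4 globin genes summed to 1.16 times as much in replicate 2, and the other 14 erythroid genes to 1.14 times. Ermap, a red cell membrane protein gene, was the 1 listed gene past 2-fold on the log2(TPM + 1) scale. It had 1.16 TPM in replicate 1 and 3.56 TPM in replicate 2.

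Between these sizes lay Slc4a1, the band 3 anion exchanger gene, named after its values were seen, with 7.44 TPM in replicate 1 and 15.2 TPM in replicate 2. Klf1, an erythroid factor that works beside GATA1, had 1.25 TPM in replicate 1 and 4.06 TPM in replicate 2 and was the 1 of 11 partner factors compared that passed 2-fold. Within a library the log2 ratio of Gata1 to Slc4a1 was -2.84 ± 0.20, and that of Gata1 to Hba-a1, another alpha globin gene, had a wider spread, at -12.35 ± 0.76. Alas2, the erythroid heme synthesis gene, had 120 TPM in replicate 1 and 140 TPM in replicate 2. Liver genes, given above, were higher in the same library, and their part in the Gata1 difference was not tested.

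The partner factors of the haematopoietic GATA proteins, Klf1 among them, showed no common direction. Of 11 compared, 6 were higher in replicate 2. Tcf3 and Ldb1, components of the complexes in which GATA1 and GATA2 sit, were highest, Tcf3 with 68.3 TPM in replicate 1 and 69.5 TPM in replicate 2, and Ldb1 at 60.7 TPM and 47.9 TPM. Gfi1b, a repressor of red cells and megakaryocytes, was lowest at 0.67 TPM and 1.19 TPM. Of 7 megakaryocyte genes compared, 5 were higher in replicate 2 and 0 passed 2-fold on the log2(TPM + 1) scale. Gp9 came nearest, at 0.93 on that scale, with 2.79 TPM in replicate 1 and 6.22 TPM in replicate 2. Pf4, the platelet factor gene, had 55.6 TPM in replicate 1 and 67.6 TPM in replicate 2, and Itga2b, the platelet integrin gene, had 10.1 TPM and 10.2 TPM. Gp1ba was lowest, at 0.42 TPM and 0.30 TPM.

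Gata3 showed a different picture beside the genes of its cells. Of 10 T lymphoid and innate lymphoid genes compared, 10 were higher in replicate 2, also under the other scalings. On the log2(TPM + 1) scale 4 passed 2-fold. Lck, a T cell kinase gene, had 9.09 TPM in replicate 1 and 22.2 TPM in replicate 2. Cd3g had 5.19 TPM and 13.8 TPM, Cd3d 1.91 TPM and 6.61 TPM, and Ptcra, the gene of the pre-T cell receptor, 2.36 TPM and 5.97 TPM. Gata3 itself differed by 0.08 on the log2(TPM + 1) scale. Its log2 ratio to Cd3g was -0.31 in replicate 1 and -1.62 in replicate 2, whereas that to Tcf7, an early T cell factor gene with 13.8 TPM and 16.6 TPM, was steady at -1.80 ± 0.12. Cd4 was lowest, at 0.10 TPM and 0.37 TPM. The 13 listed genes summed to 47.0 TPM in replicate 1 and 88.8 TPM in replicate 2, with none at 0, and their part in the Gata3 level was not tested.

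Gata2 was set beside endothelial and mast cell genes. The median of the endothelial list was 27.9 ± 0.0601 TPM. Its highest genes were Pecam1, an adhesion gene, with 126 TPM in replicate 1 and 117 TPM in replicate 2, and Tie1, a receptor gene, at 85.6 TPM and 83.1 TPM. Foxc2 was lowest, at 0.48 TPM and 0.51 TPM. None of the 13 compared passed 2-fold, and 4 were higher in replicate 2, a number that fell to 0 with TMM scaling of counts. The log2 ratio of Gata2 to Pecam1 was -3.47 ± 0.09 and that to Cdh5, the endothelial cadherin gene, -2.62 ± 0.09. In both libraries Gata2 thus lay well below Pecam1 and Cdh5, which are among the higher genes of the list. It lay above Flt4, Edn1, Prox1 and Foxc2. Erg, with 9.76 TPM in replicate 1 and 9.96 TPM in replicate 2, was not separated from Gata2 in replicate 2. There Gata2 had 10.1 TPM, with deposited bounds of 9.04 to 10.6 TPM. The other listed genes stood above Gata2 in both libraries.

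Mast cell, basophil and eosinophil genes were mostly low, with 5 of 12 at 1 TPM in both replicates. Kit, the stem cell factor receptor gene used by mast cells and other cells, had 39.2 TPM in replicate 1 and 36.4 TPM in replicate 2. Hdc, the histamine synthesis gene, had 10.3 TPM and 14.2 TPM. Epx, the eosinophil peroxidase gene, was listed at 0 in replicate 1 and at 0.09 TPM in replicate 2. Gata2 over Kit gave -1.78 ± 0.10. Of the 5 genes compared, 4 were higher in replicate 2, and Kit was the 1 that was lower, as Gata2 was.

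Against lung epithelial genes Gata6 kept a narrow ratio to a chosen pair of factor genes and a wider one to Sftpc and Scgb3a2. Gata6 over Nkx2-1 gave a log2 ratio of -2.18 ± 0.09 and Gata6 over Foxa2, a factor of endodermal epithelium, -0.94 ± 0.04. Nkx2-1 and Foxa2 were chosen with their values known and were lower in replicate 2, as Gata6 was. Other factor genes on the list, Foxp2, Foxa1 and Cebpa, were higher in replicate 2. Foxp2 had 73.5 TPM in replicate 1 and 82.1 TPM in replicate 2. Foxa1 had 6.27 TPM and 6.67 TPM, and Cebpa 5.63 TPM and 6.79 TPM. Gata6 over Sftpc was -9.38 in replicate 1 and -9.93 in replicate 2, and Gata6 over Scgb3a2 was -5.84 and -6.44. Of 15 lung epithelial genes, 10 were higher in replicate 2 and 0 passed 2-fold. Scgb3a2, a secretory cell gene, had 933 TPM in replicate 1 and 1258 TPM in replicate 2, and Aqp5, a gene of later alveolar cells, was lowest at 1.24 TPM and 2.08 TPM. Gata5 over Acta2, the smooth muscle actin gene, gave -4.94 ± 0.02, and Gata5 over Tcf21, a mesenchymal factor gene, -4.01 ± 0.12. Acta2 had 657 TPM in replicate 1 and 590 TPM in replicate 2, and Tcf21 322 TPM and 331 TPM. Myocd, a smooth muscle coactivator gene, was lowest of its list at 10.7 TPM and 10.6 TPM.

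**Figure D5:**
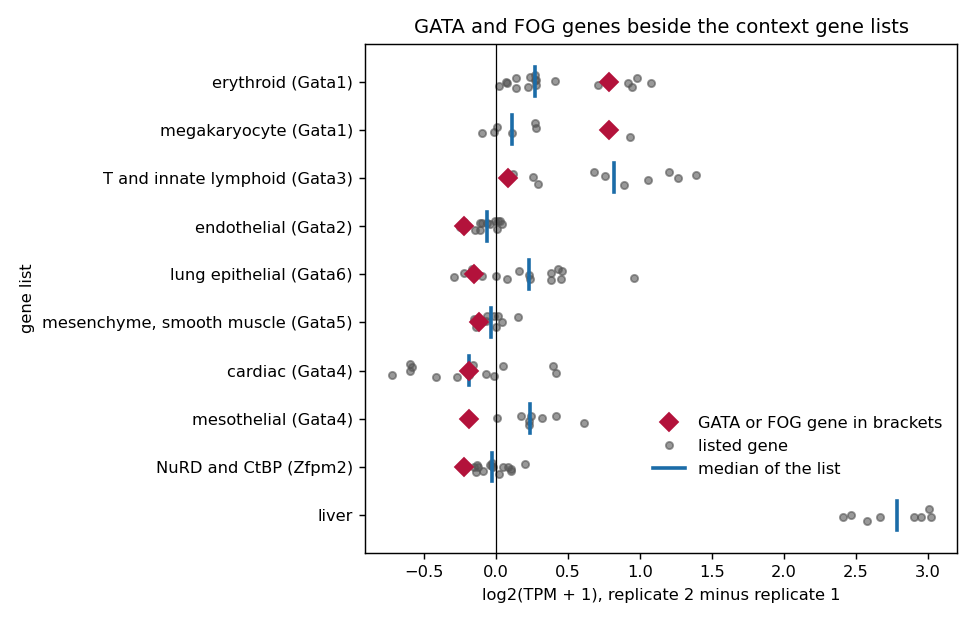
Difference in log2(TPM + 1), replicate 2 minus replicate 1, for listed genes whose mean reached 1 TPM (grey points, spread vertically for sight), the median of each list (blue line) and the GATA or FOG gene named in brackets (red diamond). Gata1 lies to the right of the erythroid median, Gata3 to the left of all 10 T lymphoid genes, and the liver genes, all 8 past 2-fold, stand apart at the right.

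Gata4 was set beside genes of heart, which lies next to the lung, and of mesothelium, which covers it. Of 13 cardiac genes compared, 10 were lower in replicate 2, as was Gata4, and 0 passed 2-fold. Myl7, the atrial myosin light chain gene, had 565 TPM in replicate 1 and 377 TPM in replicate 2, and Actc1, the cardiac actin gene, 339 TPM and 350 TPM. Nkx2-5, a heart factor that works with GATA4, had 2.47 TPM in replicate 1 and 1.29 TPM in replicate 2. Gata4 over Nkx2-5 was -0.03 in replicate 1 and 0.63 in replicate 2. Hand1 was lowest, at 0.13 TPM and 0.19 TPM. The 15 listed genes summed to 1403 TPM in replicate 1 and 1172 TPM in replicate 2, with none at 0, and the part of heart tissue in the Gata4 level was not tested.

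Mesothelial genes went the other way, with 8 of 8 higher in replicate 2 and 7 to 8 under the other scalings. Upk3b, a mesothelial surface gene, had 34.1 TPM in replicate 1 and 40.5 TPM in replicate 2, and Msln, the mesothelin gene, 25.8 TPM and 40.0 TPM. Bnc1 was lowest, at 0.92 TPM and 1.39 TPM. Gata4 over Wt1, a mesothelial factor gene, gave a log2 ratio of -0.86 in replicate 1 and -1.40 in replicate 2.

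Other genes in which mutations are linked to congenital diaphragmatic hernia, a defect in which Zfpm2, Gata4 and Gata6 are also implicated, were measured as a last list. Of 15, 14 reached 1 TPM in both replicates, with 8.24 ± 0.177 TPM as the median, and 7 of 14 compared were higher in replicate 2. Lox, a matrix crosslinking gene, had 240 TPM in replicate 1 and 226 TPM in replicate 2. Nr2f2, a nuclear receptor gene that is also on the mesenchymal list, had 49.9 TPM and 45.3 TPM, and Zfpm2 over Nr2f2 gave -3.76 ± 0.10. Stra6, a retinol transport gene, was lowest at 0.87 TPM and 0.82 TPM.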

How the data were processed

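Each library came with a gene table and a transcript table that the authors deposited, quantified on mm10 with annotation GENCODE M4 (as notes among the deposited files say). The aligner, quantifier and strand setting are not given in the sources used here. Per the labels' protocols, each library started from 10 ng of RNA above 200 nt. The expected counts the authors deposited divide a read that matches several features among them. TPM and FPKM were deposited by the authors per effective length, with spike-ins in the TPM total. The percent values deposited are a transcript's share of its gene's TPM, and the score columns the authors deposited hold bounds and posterior SDs within a library. The expected counts summed to 38852470 for replicate 1 and 27145411 for replicate 2, of which spike-ins took 2.30% and 2.32%. A count of 0 allows up to 3 counts, 0.0790 CPM and 0.113 CPM, where CPM is a gene's share of all gene counts.

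Symbols and coordinates came from GENCODE M21 by gene identifier, promoter sequences from RefSeq by symbol. Each mean is ± SD over n = 2, and separate pools are all that the labels say of the replicates' independence. Ratios are log2(TPM + 0.01) differences within a library, and a sign held when it was that of both libraries with a mean beyond 2 SD. Replicate differences used log2(TPM + 1) and genes with a mean of 1 TPM or more. The counting of 2-fold differences was tested on simulated counts, with changes larger than 2-fold placed in genes at 10 TPM or more. Only counting noise was simulated, so changes in lower genes and differences between pools were not covered. The members and lists were chosen with earlier results of these data known. Named genes are the 8 members, the 2 highest and the lowest of each list, genes past 2-fold, and annotated genes that overlap a member or start within 5 kb of it. Other genes (markers used in ratios, Slc4a1, Alb, Gp9, Foxp2, Foxa1, Cebpa, Erg, Flt4, Edn1 and Prox1) were named outside this rule, with their values known. The lowest gene of the erythroid list is not reported here, and Gm38708, beside Gata2, and Gm49524, Gm49525 and Gm49526, within Zfpm2, were not analysed here. Scaling alternatives used edgeR 4.0.16 and DESeq2 1.42.0 in R 4.3.3 on expected counts rounded to whole numbers. Other steps used Python 3.11.15, NumPy 2.4.6, pandas 2.3.3, SciPy 1.17.1 and matplotlib 3.10.9.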

Additional observations from a re-analysis of the deposited data

How the results depend on the processing

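Of the 8 genes, 6 were at 1 TPM or more in both replicates, and the count was 3 at a limit of 5 TPM, 8 at 0.5 TPM and with posterior mean TPM, and 6 to 7 with 1 replicate left out. The count of members that differed by 2-fold was 0, and it was 1 (Gata1) with a pseudocount of 0.1. It was 0 under the other alternatives for scaling and filtering. The sign of Gata3 over Gata1 held with posterior mean TPM, at 1.67, and the other 14 of 15 ratios kept their side of the rule there. Sizes of ratios could move more: Zfpm2 over Gata4 was 0.37 with posterior mean TPM and 1.52 in CPM, its sign holding in both. Signs could turn in CPM, which is not divided by length. Gata3 over Zfpm2 went from 0.31 to -0.74, where its sign held. Zfpm1 over Gata1 went from -0.84 to 0.19, and its sign held in neither. The sign of Gata3 over Gata1 held in CPM, at 2.12. Of the 8 levels, 5 lay within the replicate SD with posterior mean TPM and 7 without spike-ins. Zfpm1-201 held 60.0% of the Zfpm1 level and Gata3-201 56.0% of the Gata3 level by posterior mean TPM, where transcripts without reads receive a share. The counts of listed genes higher in replicate 2 under other scalings were chosen after the data were seen. Of these values, 73 stayed within 1.5 times and 7 did not, for endothelial, mesenchymal and diaphragmatic hernia genes. No paired analysis was possible because there is 1 group. Depth limits Gata1 and Zfpm1 most, which rest on fewer than 100 counts in each library.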
